A study of Mus musculus with 24 samples.

Results

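The wild-type (WT) regions of a spatial transcriptomics series of mouse brain were compared between its scans, that is, between slides. The 8 WT regions were taken by their labels from the 24 regions of the series. Regions 9 to 12 of scan 2 came from the group WT-males and regions 1 to 4 of scan 3 from the group WT-females. They are called male regions 1 to 4 and female regions 1 to 4 below, in that order. Both groups were wild type in genotype, their tissue was labelled brain and their cell type macrophage. The submitters' design text calls the wild-type group WT-SAH, which by the series title refers to subarachnoid haemorrhage, bleeding into the space around the brain. The 16 other regions were of MG-cKO and BMM-cKO mice, 4 male regions on scan 2 and 4 female regions on scan 3 for each, and no label explains these names, their Cre driver or the deleted allele. The title names macrophage Lyn, a Src-family kinase of myeloid cells. Age, time after the haemorrhage and the number of mice are not given in the sources used here. Sex, scan, slide and animal group therefore cannot be told apart, and "male" and "female" below name the groups only. No label ties a region to an animal, so that every p-value over regions is too small if regions share a mouse.

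Regions were measured on the GeoMx digital spatial profiler, in which barcoded probes bound to the RNA of a section are released from a chosen area by light and counted by sequencing. Sections were stained for Iba-1, the product of Aif1 and a marker of macrophages and microglia, and for Tmem119, a marker of microglia. The profiler can collect a whole area or only a stained part of it, and which was done is not given in the sources used here. The region labels name both stains in either group and end in a plus sign in the males only, so that this difference in label cannot be told apart from scan and sex either. Tissue collected from a brain area can hold neurons and glia beside the stained cells. The striatum is built mostly of projection neurons that express the dopamine-signalling protein DARPP-32 and the opioid precursors proenkephalin or prodynorphin. The hypothalamus holds peptide neurons, such as those that make oxytocin, and expresses several imprinted genes strongly. In such bulk samples, fewer cells of a type and less RNA per cell cannot be told apart.

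Each region gave a signal for 19962 targets beside a negative probe that matches no mouse transcript, from 1839154 to 4589359 recovered barcode tags in male and 2053159 to 5796412 in female regions. Levels below are multiples of the region's own negative probe, so that 1 is background. Of all targets, those above 2 times this background made up 2.32% ± 1.09 in male and 3.2% ± 0.37 in female regions (SD, n = 4 each; exact two-sided permutation p = 0.257, adjusted p = 0.386 over 6 such region measures). The negative probe itself lay at 0.932 ± 0.0221 times the median target in male and 0.977 ± 0.0127 times in female regions, without overlap (exact permutation p = 0.0286, the smallest that 70 splits allow; adjusted p = 0.0857). Differences are log2 values, male minus female, each region centred on its median over the 9981 targets that passed the filter on low values. A called target has a Benjamini-Hochberg adjusted p under 0.05 in limma.

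Of the 9981 tested targets, 1626 (16.3%) were called higher and 2317 (23.2%) lower in male regions, 3943 in all (39.5%). The 2 groups of regions did not overlap for 3180 targets (31.9%). Only 8 called targets were over 2-fold higher and 8 over 2-fold lower, 0.0802% each. Receptors for odours, pheromones and taste and hair keratin-associated proteins, which brain tissue is not known for and which are called non-brain probes below, served as a measure of what such calls are worth. In a fit of all targets 461 of their 1195 probes were called (38.6%), beside 6975 of all 19962 (34.9%). Of the 461, 248 were higher and 213 lower in male regions. A call alone therefore did not set brain genes apart from these probes. The central 95% of their differences in that fit lay between -0.60 and 0.44. In the main fit, that of the 9981 tested targets, 309 targets lay above 0.44 and 164 below -0.60. The fits differ in their centring, by which every difference is lower by the same amount in the fit of all targets. Nrgn, for instance, was at 0.041 in the main fit and -0.043 there. On the centring of the main fit the range therefore lies somewhat higher. The members described below are read against the range with this limit. Within a region, the log2 values of the non-brain probes had an SD of 0.317 ± 0.023 in male and 0.405 ± 0.0042 in female regions. The groups did not overlap in this spread (n = 4 each, exact permutation p = 0.0286, adjusted p = 0.0857). The part of this spread in the differences below was not tested. The split of calls also depended on the scale. Of the called targets 41.2% were higher in male regions, against 96.4% on the deposited scale, which raised the median of all targets by 0.34, and 10.2% when regions were centred on the non-brain probes, which lowered it by 0.16.

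The regions fell apart by group, with female region 1 between. Over the 1974 targets with a mean above 1.5 times the negative probe, Pearson's r of the log2 levels lay between 0.878 and 0.926 within male regions, between 0.752 and 0.939 within female regions and between 0.38 and 0.778 across the groups (pairs of regions that share a slide within groups; described without a test). Female region 1 was the nearest to the male regions, at 0.699 to 0.778. Its correlation was 0.752 and 0.76 with female regions 2 and 4, and 0.876 with female region 3. By the library names it was also the only female region on plate B, with all 4 male regions, while female regions 2 to 4 were on plate C. In all 12 pairs within the groups, tag numbers varied beyond counting noise (a ratio of chi-square to degrees of freedom of 1.14 to 1.82), so no region was a copy of another.

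Genes of striatal projection neurons were lower in the male regions and accounted for the largest falls. Ppp1r1b, which encodes DARPP-32, lay at 1.06, 0.858, 0.877 and 1.26 times the negative probe in male regions 1 to 4, and at 2.2, 5.33, 4.43 and 7.39 times in female regions 1 to 4. All 4 male regions were thus near background and every female region lay above them, with the lowest female level in region 1. The difference was -2.12 ± 0.41 (log2 ± SE, adjusted p = 0.000242), or 4.34-fold higher in female regions. Penk, which encodes proenkephalin, was at 2.08, 2.34, 2.5 and 2.38 times in male and 4.8, 8.25, 6.67 and 10.8 times in female regions. It was thus above background in all 8 regions, without overlap, and fell by 1.64 ± 0.16 (adjusted p = 1.77e-07). Arpp21, a phosphoprotein regulated by cyclic AMP in striatal neurons, was at 0.895, 0.97, 1.1 and 1.01 times in male and 1.93, 4.97, 3.15 and 5.86 times in female regions (-1.85 ± 0.21, adjusted p = 4.66e-07). The male regions again lay at background, and female regions 2 and 4 had the highest levels.

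**Figure D1:**
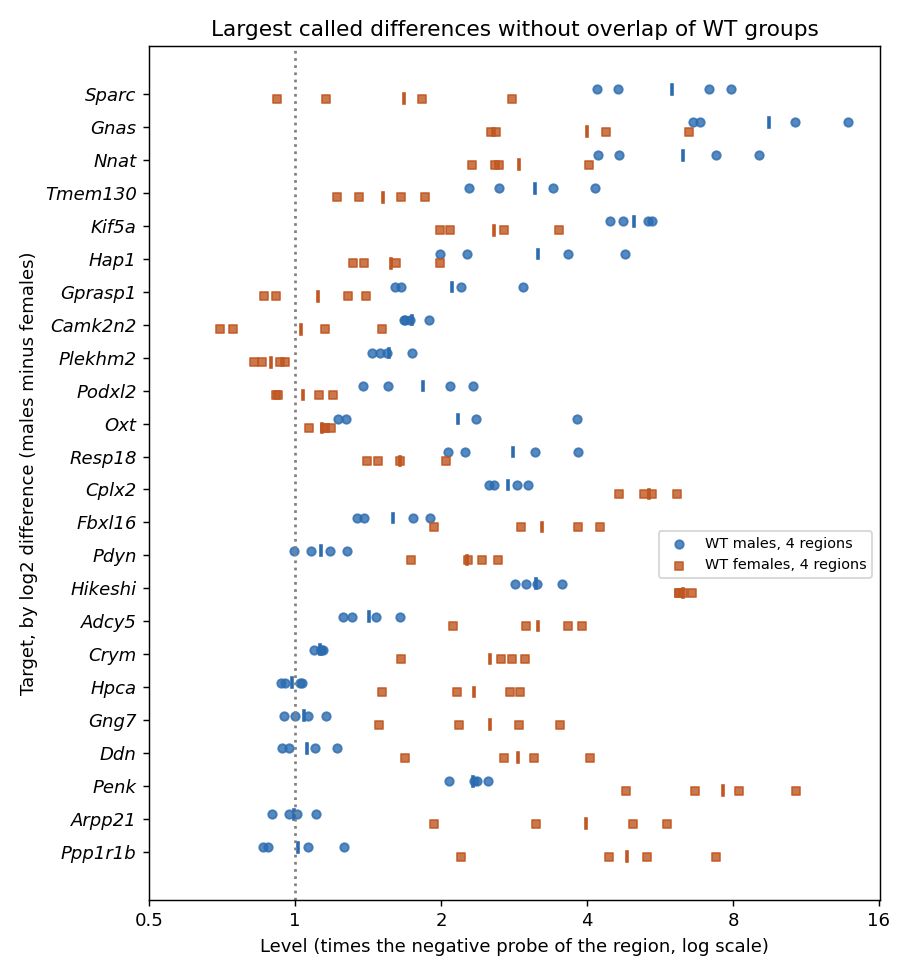
Levels of the 12 largest rises and 12 largest falls among called targets whose groups did not overlap, in multiples of the negative probe of the region (log axis). Circles are the 4 WT male regions and squares the 4 WT female regions, short bars their means. All 4 squares of Ppp1r1b, Arpp21 and Penk lie to the right of the circles, with female region 1 the lowest of them, and Sparc, Gnas and Nnat are higher in male regions.

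The signalling genes of the same neurons followed. Adcy5, the main adenylyl cyclase of the striatum, was at 1.31, 1.47, 1.65 and 1.26 times the negative probe in male and 2.12, 3.66, 3 and 3.9 times in female regions (-1.11 ± 0.14, adjusted p = 2.38e-06). Gng7, a G protein gamma subunit that works with this cyclase, was at 1.06, 1.16, 0.997 and 0.948 times in male and 1.49, 3.51, 2.18 and 2.89 times in female regions (-1.19 ± 0.16, adjusted p = 4.01e-06). Pdyn, which encodes prodynorphin, was at 1.08, 0.995, 1.18 and 1.28 times in male and 1.73, 2.42, 2.27 and 2.62 times in female regions (-0.97 ± 0.11, adjusted p = 3.88e-07). In none of these 3 genes did a male region reach the lowest female region. Of the 28 striatal genes, 19 passed the filter, 15 were called lower, against 23.2% of all tested targets, and none higher in male regions. Below the -0.60 given for the non-brain probes lay 8 of the 19. From 10 to 17 of them were called lower under every other scaling of the same targets, with 1 called higher on the deposited scale. Their median difference was -0.58, beside -0.0092 over all tested targets. Their median level per region lay between 0.00 and 0.08 (log2 relative to the median target) in male regions, and at 0.38, 0.84, 0.71 and 1.00 in female regions 1 to 4. Female region 1 was the lowest female region for all 15 called genes.

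The other 6 of the 12 largest falls were outside the striatal list. Crym, which encodes a thyroid hormone-binding crystallin, was at 1.13, 1.09, 1.13 and 1.14 times the negative probe in male and 1.66, 2.98, 2.66 and 2.8 times in female regions (-1.11 ± 0.12, adjusted p = 2.34e-07). Ddn, which encodes the dendritic protein dendrin, was at 1.06 ± 0.129 times in male and 2.89 ± 0.981 times in female regions, and Hpca, which encodes the calcium sensor hippocalcin, at 0.985 ± 0.0493 and 2.34 ± 0.638 times (SD, n = 4 each). All 3 genes were near background in male regions, and the differences were -1.37 ± 0.22 for Ddn and -1.18 ± 0.20 for Hpca. Cplx2, a complexin that acts on vesicle release, was at 2.51, 2.58, 2.87 and 3.02 times in male and 4.66, 6.14, 5.23 and 5.43 times in female regions (-0.94 ± 0.16, adjusted p = 5.96e-05). Fbxl16, an F-box protein gene, fell by 0.95 ± 0.16. Hikeshi, which encodes the nuclear import carrier of heat-shock protein Hsp70, was at 3, 3.56, 3.16 and 2.84 times in male and 6.18, 6.19, 6.57 and 6.32 times in female regions (-0.99 ± 0.16, adjusted p = 2.48e-05). The 4 female levels of Hikeshi were nearly equal, unlike those of the striatal genes. In female region 1 all 12 leading falls were at their lowest female level.

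Cortical and hippocampal genes had a median difference of -0.13. Of their 27 measured members 19 passed the filter, and 5 of these (26.3%) were called lower and none higher in male regions, a share near the 23.2% of all tested targets. With plate as a term 1 was called lower and on plate B alone 2, and without male region 1 or female region 2 or 4 there were 3. Beside Crym, Camk2a, the calcium kinase of excitatory synapses, was at 1.57, 2.14, 2.35 and 1.82 times the negative probe in male and 2.47, 4.47, 2.66 and 3.42 times in female regions (-0.68 ± 0.23, adjusted p = 0.0196). Wfs1 (-0.51 ± 0.14) and Bcl11b (-0.45 ± 0.096), which the striatal list also holds, lay inside the range of the non-brain probes, and Wfs1 turned to 0.14 on plate B alone. The defining markers of the list were not called. Slc17a7, the vesicular glutamate transporter of cortex and hippocampus, was near background in both groups, at 0.989 ± 0.097 and 1.06 ± 0.0998 times, and Nrgn, a calmodulin-binding protein of dendritic spines, was at 2.26 ± 0.152 and 2.28 ± 0.605 times.

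Several genes of the hypothalamus list were higher in the male regions. Ndn, an imprinted gene that encodes necdin, was at 3.55, 5.47, 6.18 and 2.94 times the negative probe in male and 3.03, 1.22, 2.32 and 1.41 times in female regions (1.23 ± 0.33, adjusted p = 0.00454). Male region 4 lay just below female region 1 in Ndn, so that the groups overlapped, while male regions 2 and 3 lay well above all others. Nnat, an imprinted gene that encodes neuronatin, was at 4.2, 7.36, 9.06 and 4.66 times in male and 2.59, 2.64, 4.04 and 2.31 times in female regions (1.10 ± 0.38, adjusted p = 0.0218). Oxt, which encodes the oxytocin precursor, was at 1.22, 3.81, 2.35 and 1.27 times in male and 1.18, 1.15, 1.15 and 1.07 times in female regions (0.78 ± 0.18, adjusted p = 0.00141). Its male regions 1 and 4 hardly left the female levels, and regions 2 and 3 made up the difference.

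Hap1, a huntingtin-binding trafficking protein, was at 2.26, 3.66, 4.78 and 1.99 times the negative probe in male and 1.61, 1.32, 1.99 and 1.39 times in female regions (0.95 ± 0.35, adjusted p = 0.0328). Resp18, a protein of the endocrine secretory pathway, was at 2.24, 3.12, 3.83 and 2.07 times in male and 2.05, 1.41, 1.64 and 1.48 times in female regions (0.76 ± 0.23, adjusted p = 0.0108). Zwint, a kinetochore protein that neurons also express, rose by 0.82 ± 0.25. Of the 26 hypothalamic genes, 20 passed the filter, 9 were called higher, against 16.3% of all tested targets, and 1 lower. Calls in either direction made up 50% of the 20, beside 39.5% of all tested targets. Of the 20, 8 lay above the 0.44 given for the non-brain probes. Their median was 0.36. The gene called lower was Agrp, an appetite peptide of the hypothalamus, at 1.25 ± 0.0345 times in male and 1.58 ± 0.0985 times in female regions (-0.33 ± 0.069, turned to 0.018 on the deposited scale). The defining peptides Pmch and Hcrt were below the negative probe in all 8 regions.

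Male regions 2 and 3 both lay above regions 1 and 4 for 8 of the 9 hypothalamic genes called higher. This order was not particular to the list. It held for 5 of 5 called ribosomal, 7 of 11 macrophage and 5 of 8 astrocyte genes, and for 0 of 4 myelin genes. Male regions 2 and 3 also had the fewest tags of the male regions, 1839154 and 1966407 beside 4589359 and 4153510. Above 2 times the negative probe lay 2.79% and 3.64% of targets there, beside 1.35% and 1.5% in male regions 1 and 4. The part of depth and of this share in the result was not tested. Without male region 3, 5 hypothalamic genes were called higher, and without male region 4, 11. With female region 1 left out 8 were called, and with regions centred on the non-brain probes 5.

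The remaining leading rises were outside the hypothalamus list, and whether they share a brain area was not tested. Sparc, a secreted matrix glycoprotein made by microglia and vessel cells, was at 4.19, 7.15, 7.91 and 4.64 times the negative probe in male and 2.79, 1.16, 1.83 and 0.919 times in female regions (1.93 ± 0.29, adjusted p = 1.54e-05). It was 3.8-fold higher in male regions, without overlap, and had the largest rise among called targets without overlap. Gnas, an imprinted gene that encodes the stimulatory G protein alpha subunit, was at 6.63, 10.7, 13.8 and 6.85 times in male and 6.48, 2.53, 4.37 and 2.6 times in female regions (1.31 ± 0.30, adjusted p = 0.0011). Female region 1 nearly reached male region 1 in Gnas, while the other female regions stayed below it. Kif5a, a kinesin motor of axonal transport, was at 4.46, 4.74, 5.35 and 5.45 times in male and 3.5, 1.99, 2.69 and 2.09 times in female regions (1.01 ± 0.23, adjusted p = 0.000869). Its male regions were close together, above all female regions.

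Plekhm2, an adaptor that links lysosomes to kinesin, was at 1.5, 1.74, 1.44 and 1.55 times the negative probe in male and 0.932, 0.952, 0.821 and 0.855 times in female regions (0.82 ± 0.09, adjusted p = 3.7e-07). It was at background in all female regions and moderately above it in all male regions. Camk2n2, an inhibitor of the calcium kinase CaMKII, was at 1.72, 1.68, 1.89 and 1.68 times in male and 1.51, 0.701, 1.15 and 0.744 times in female regions (0.84 ± 0.19). Tmem130 rose by 1.03 ± 0.26, Gprasp1, which sorts G protein-coupled receptors, by 0.91 ± 0.21 and Podxl2, a sialomucin gene, by 0.81 ± 0.16. Male regions 2 and 3 both lay above regions 1 and 4 for 9 of the 12 leading rises.

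**Figure D2:**
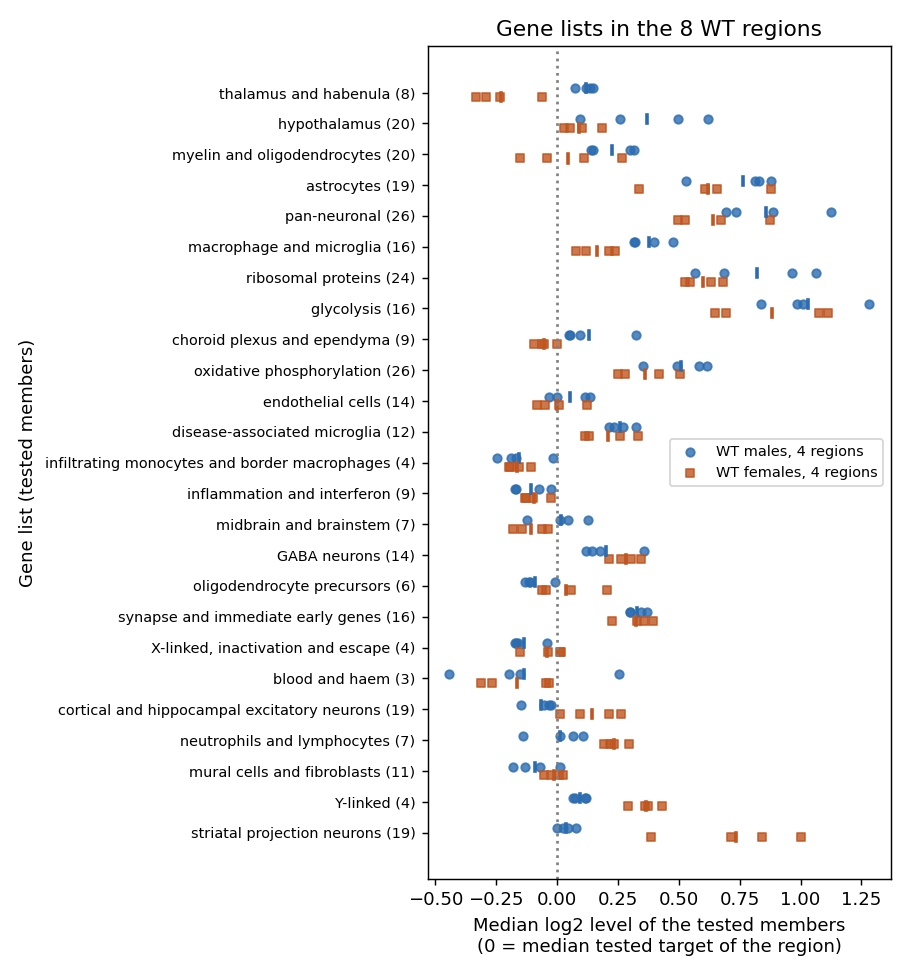
Median log2 level of the tested members of each gene list in the 8 WT regions, relative to the median tested target of the region, ordered by the median log2 difference. Circles are male and squares female regions, short bars the means, and the number after each name counts its tested members. The striatal list separates the groups most, with female regions at 0.38 to 1.00 and male regions at 0.00 to 0.08.

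Of 8 tested genes of thalamus and habenula, 3 were called higher, against 16.3% of all tested targets, and none lower, with a median of 0.38, close to that of the hypothalamus list. These 3 made up 37.5% of the tested genes, beside 39.5% of all tested targets called in either direction. With plate as a term none was called. Nptx1, a neuronal pentraxin, was at 1.51, 1.55, 1.57 and 1.6 times the negative probe in male and 1.12, 0.959, 0.931 and 0.957 times in female regions (0.67 ± 0.14). Plekhg1 (0.41 ± 0.086) and Rora, a nuclear receptor (0.28 ± 0.096), were called inside the range of the non-brain probes, and the defining markers Tcf7l2 (0.56 ± 0.27) and Slc17a6 (0.43 ± 0.18) did not pass the threshold. Of 7 tested midbrain and brainstem genes, 1 was called higher, the serotonin transporter Slc6a4 (0.45 ± 0.066), and 2 lower. Slc6a4 lay above 0.44, but inside the range of the non-brain probes on a common centring. The dopamine-neuron markers Th and Slc6a3 were below the negative probe in all 8 regions. Of 14 tested genes of GABA neurons 1 was called higher and 4 lower. Calls in either direction made up 35.7% of this list and 42.9% of the midbrain list, beside 39.5% of all tested targets. The GABA-making enzymes were not called, with Gad1 at 2.49 ± 0.379 and 2.86 ± 0.876 times in male and female regions and Gad2 at 2.28 ± 0.471 and 2.63 ± 0.501 times. Dlx5, a transcription factor of these neurons, fell by 0.77 ± 0.10, and Lhx6 by 0.37 ± 0.09.

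The pan-neuronal list was strong in both groups. Of its 26 members, all tested, 17 had a mean above 2 times the negative probe in male and 13 in female regions. Called members were 2 higher, Stmn2 (0.68 ± 0.28) and Map2 (0.45 ± 0.17), both of the neuronal cytoskeleton, and 2 lower, among them Pcp4 (-0.56 ± 0.15), with a median of 0.25 that turned to -0.13 on plate B alone. No member was called higher without male region 2 or 3 or female region 4, and 4 were without female region 1. Snap25, a protein of synaptic vesicle fusion, was at 4.04, 3.88, 5.16 and 4.35 times in male and 6.45, 2.91, 4.8 and 4.02 times in female regions, so that the female regions spread around the male ones. Rbfox3, which encodes the neuronal marker NeuN, was at 1.27 ± 0.148 and 1.2 ± 0.069 times. In the list of synapse and immediate early genes 2 of 16 were called higher, among them Npas4 (0.51 ± 0.094), and 1 lower, Cplx2. Npas4 lay above 0.44, but inside the range of the non-brain probes on a common centring. Calls in either direction made up 18.75% of this list and 15.4% of the pan-neuronal list, below the 39.5% of all tested targets. Fos was near background in all regions.

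The macrophage label of the regions was not borne out by strong marker signal. Tmem119, for which the sections were stained, was below the negative probe in all 8 regions, at 0.733, 0.709, 0.877 and 0.687 times in male and 0.658, 0.849, 0.649 and 0.855 times in female regions. Aif1, the gene of the other stain, was at 1.5, 1.39, 1.33 and 1.29 times in male and 2.47, 2.4, 2.3 and 2.56 times in female regions (-0.80 ± 0.099, adjusted p = 1.3e-06). Every female region thus exceeded every male region for Aif1. The non-brain probes were also spread more widely in every female region, and the part of this in the difference was not tested. Of the 24 macrophage and microglia genes, 3 had a mean above 2 times the negative probe in male and 1 in female regions, and their median level was 1.39 times in male and 1.17 times in female regions. Among the 16 tested, 10 were called higher in male regions, against 16.3% of all tested targets, and 1, Aif1, lower, with a median of 0.24. Higher calls numbered 4 when regions were centred on the non-brain probes, 3 on plate B alone and 2 with plate as a term.

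The macrophage list thus split, since the gene of the stain ran against its other called members. Beside Sparc, P2ry13, a purine receptor of microglia (0.47 ± 0.086), and Sall1, a transcription factor of microglia (0.39 ± 0.092), were also higher, at 1.36 ± 0.118 and 1.49 ± 0.0773 times in male and 0.986 ± 0.055 and 1.14 ± 0.0603 times in female regions. Sparc lay above the range of the non-brain probes, and Sall1 inside it. P2ry13 lay above 0.44, but inside the range on a common centring. Lyn itself was near background, at 1.05, 1.01, 1.02 and 1.02 times in male and 1.07, 1.11, 1.16 and 1.11 times in female regions (-0.10 ± 0.085, adjusted p = 0.346), and was not called.

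Of 12 tested genes of disease-associated microglia, 3 were called higher, against 16.3% of all tested targets, and 2 lower. Calls in either direction made up 41.7% of the 12, beside 39.5% of all tested targets. None of the 12 was called higher without male region 2, 3 or 4 or female region 2 or 4. The same held after division by the negative probe and on plate B alone, and 1 was called higher without female region 3. Apoe, the main lipid carrier of the brain and made by astrocytes as well, was at 6.78, 10.8, 11.6 and 8.39 times in male and 7.43, 5.83, 5.95 and 4.42 times in female regions (0.68 ± 0.26, adjusted p = 0.0374), with male region 1 below female region 1. The protease gene Ctsb rose by 0.43 ± 0.16. Spp1 was below the negative probe everywhere. Among infiltrating monocyte and border macrophage genes 1 of 4 tested was called higher, S100a4 (0.26 ± 0.098), and the monocyte receptor Ccr2 stayed below the negative probe in all regions. Of 7 tested neutrophil and lymphocyte genes 3 were called lower and none higher, 42.9% in all. Of all tested targets 23.2% were called lower and 39.5% in either direction. The 3 genes included Il1r2 (-0.58 ± 0.092) and the neutrophil elastase Elane (-0.54 ± 0.077). Both lay above -0.60, but below the range of the non-brain probes on a common centring. The defining neutrophil markers S100a8 and S100a9 were not called, S100a8 because it did not pass the filter.

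Of 9 tested genes of inflammation and interferon, 1 was called higher and 4 lower, 55.6% in all beside 39.5% of all tested targets. The largest falls were Traf6, an adaptor of Toll-like receptor signalling (-0.59 ± 0.10), and Ifit3, an interferon-induced gene (-0.54 ± 0.077). Both lay above -0.60, but below the range of the non-brain probes on a common centring. Il1b and Il6 were near or below the negative probe, at 0.961 ± 0.0545 and 0.993 ± 0.0337 times in male and 0.757 ± 0.049 and 0.868 ± 0.0705 times in female regions. None of the 3 tested blood and haem genes was called. Hba-a1, an alpha globin, was at 2.58, 0.834, 0.877 and 0.922 times in male and 0.625, 0.714, 0.618 and 0.634 times in female regions, and male region 1 alone was above background. In the choroid plexus list, 1 of 9 tested genes was called in each direction. Its marker Ttr, which encodes transthyretin, was at 1.06, 2.61, 1.45 and 4.99 times in male and 0.954, 0.804, 0.915 and 0.908 times in female regions (1.25 ± 0.96, adjusted p = 0.309), high in male regions 2 and 4 and at background in all female regions.

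**Figure D3:**
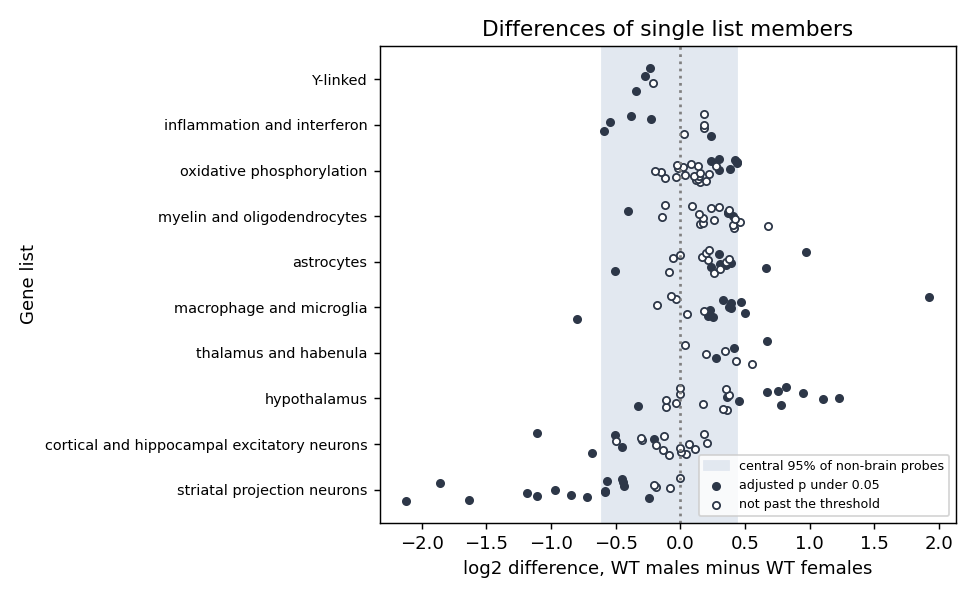
Log2 differences, WT males minus WT females, of the tested members of 10 lists. Filled points passed an adjusted p under 0.05 and open points did not, and the grey band spans the central 95% of the non-brain probes (-0.60 to 0.44). Striatal genes reach furthest to the left of the band, Sparc of the macrophage list is the point furthest to the right, and inflammation, oxidative phosphorylation and Y-linked genes stay inside the band as drawn. The band is that of the fit of all targets. On the centring of the points it would lie higher, with the inflammation genes Traf6 and Ifit3 below it.

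Some astrocyte genes were higher in male regions, with 7 of 19 tested called higher, against 16.3% of all tested targets, 1 lower and a median of 0.26. On plate B alone, and with plate as a term, none was called and the median was 0.014. In the main fit, calls in either direction made up 42.1% of the list, beside 39.5% of all tested targets. Of its 19 tested genes, 2 lay above the 0.44 given for the non-brain probes. Sparcl1, a secreted synapse-organizing protein of astrocytes, was at 5.71, 9.19, 8.9 and 6.73 times the negative probe in male and 5.85, 3.47, 4.59 and 2.4 times in female regions (0.97 ± 0.30, adjusted p = 0.0105). Aldoc, the brain aldolase, was at 3.31, 5.17, 5.25 and 3.58 times in male and 3.38, 2.62, 3 and 2 times in female regions (0.66 ± 0.20), with male region 1 inside the female range. The gene called lower was Slc1a2, the main glutamate transporter, at 2.52, 4.11, 4.4 and 3.13 times in male and 4.63, 5.75, 5.47 and 4.15 times in female regions (-0.50 ± 0.18). Gfap, a marker of reactive astrocytes, was at 1.32 ± 0.127 and 1.11 ± 0.0237 times and was not called, and Aqp4, the water channel, was near background. The astrocyte count fell to 2 higher calls without female region 4, to 3 without male region 3, to 4 without male region 2 or 4, and to 1 with regions centred on the non-brain probes.

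Myelin genes were called higher for 3 and lower for 1 of 20 tested, with a median of 0.28 that turned to -0.065 on plate B alone. Without male region 4 or female region 2 or 3, 1 was called higher, and without female region 1, 5. Mbp, which encodes myelin basic protein, was at 2.17 ± 0.452 times in male and 1.64 ± 0.302 times in female regions and was not called. Ermn, a late oligodendrocyte gene (0.41 ± 0.14), was called higher and Qdpr (-0.41 ± 0.12) lower. Of 6 tested precursor genes 2 were called lower, among them Vcan, a proteoglycan (-0.42 ± 0.082), and the defining markers Pdgfra and Cspg4 were not. Of 14 endothelial genes 1 was called higher, Tie1 (0.48 ± 0.085), and 3 lower, among them Pecam1 (-0.35 ± 0.097), while the defining markers Cldn5 and Flt1 were not called. Tie1 lay above 0.44, but inside the range of the non-brain probes on a common centring. Of 11 mural and fibroblast genes none was called higher and 3 lower. Calls in either direction made up 20% of the tested myelin genes, 33.3% of precursor, 28.6% of endothelial and 27.3% of mural genes. Each share was below the 39.5% of all tested targets. Pdgfrb did not pass the filter, and Rgs5, a pericyte gene, was at 1.55 ± 0.119 and 1.67 ± 0.128 times.

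Of 26 tested genes of oxidative phosphorylation 7 were called higher and none lower, with a median of 0.14 that turned to -0.0091 when regions were centred on the non-brain probes. The share called higher was 26.9%, beside 16.3% of all tested targets, and fell to none with plate as a term. Ndufb9, of complex I (0.44 ± 0.086), and Sdha, of complex II (0.42 ± 0.11), were among them, and the ATP synthase genes Atp5a1 (0.15 ± 0.16) and Atp5b (0.20 ± 0.20) were not. Without female region 4, 3 of these genes were called, and without male region 3 or female region 2, 4. Glycolysis had 2 of 16 called higher, Aldoc and Gpi1 (0.41 ± 0.14), and none lower, a share of 12.5% beside 16.3% of all tested targets. Gapdh was at 6.41 ± 1.48 times in male and 5.47 ± 1.3 times in female regions, and Aldoa at 4.68 ± 1.23 and 3.98 ± 1.06 times. Ribosomal protein genes had 5 of 24 called higher, among them Rplp0 (0.43 ± 0.089), and none lower, a share of 20.8% beside 16.3% of all tested targets, while Rplp1 was at -0.10 ± 0.14 and not called. The count was 2 without male region 2 or 3, 3 without female region 3, 8 without male region 1 and 1 with plate as a term. The shares of the oxidative phosphorylation and ribosomal lists were both below the 39.5% of all tested targets called in either direction. No tested member of these lists lay outside the -0.60 to 0.44 given for the non-brain probes.

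The Y-linked genes gave mixed signs as a check of the sex labels. Of 9 such genes 4 passed the filter and none was called higher in male regions, while without the filter 2 of the 9 were called higher and 5 lower. Uty was at 1.14, 1.29, 1.41 and 1.21 times the negative probe in male and 1.68, 1.56, 1.6 and 1.61 times in female regions (-0.34 ± 0.068, adjusted p = 0.000315), Zfy2 at 1.35 ± 0.068 and 1.67 ± 0.192 times and Sry at 1.44 ± 0.0885 and 1.71 ± 0.0539 times, all 3 called lower in male regions and turned in sign on the deposited scale. Usp9y was not called. Ddx3y, Eif2s3y and Kdm5d, which did not pass the filter, were at 0.98 ± 0.104, 1.1 ± 0.125 and 0.923 ± 0.0518 times in male and 0.924 ± 0.125, 0.891 ± 0.0858 and 0.653 ± 0.0703 times in female regions. Of these, Kdm5d was higher in every male than in every female region, and the other 2 overlapped. Zfy1, also below the filter, was higher in every male region as well, at 1.16 ± 0.0902 and 0.936 ± 0.0671 times. In the knockout groups the male means of Ddx3y and Eif2s3y were also the higher ones, at 1.11 and 1.02 times in males and 0.839 and 0.897 times in females of MG-cKO, and at 1.02 and 1.02 times in males and 0.804 and 0.81 times in females of BMM-cKO. All these levels lay below 2 times the background, and the tested differences lay inside the range of the non-brain probes. Of 4 tested X-linked genes none was called, and Xist and Tsix were not analysed here.

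The same scan contrast was available in the knockout groups, with no region shared between the contrasts. There, 1968 targets (19.7%) were called between male and female regions of MG-cKO and 1682 (16.9%) between those of BMM-cKO. The difference in WT itself differed from that in MG-cKO for 2702 targets (27.1%) and from that in BMM-cKO for 4561 (45.7%). Among the 19 tested striatal genes it differed for 11 and 12, and among the 20 hypothalamic genes for 4 and 7. The median of the striatal genes was 0.00 in MG-cKO, with 3 called higher and 2 lower, and -0.10 in BMM-cKO, with none called, beside -0.58 in WT. Penk differed by 0.089 ± 0.16 in MG-cKO and 0.17 ± 0.16 in BMM-cKO, and WT was -1.73 ± 0.23 (adjusted p = 7.6e-06) and -1.80 ± 0.23 (adjusted p = 2.77e-06) away from these. For Ppp1r1b the knockout differences were -0.23 ± 0.41 and -1.09 ± 0.41, and only the first was told apart from WT (adjusted p = 0.018 and 0.152).

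**Figure D4:**
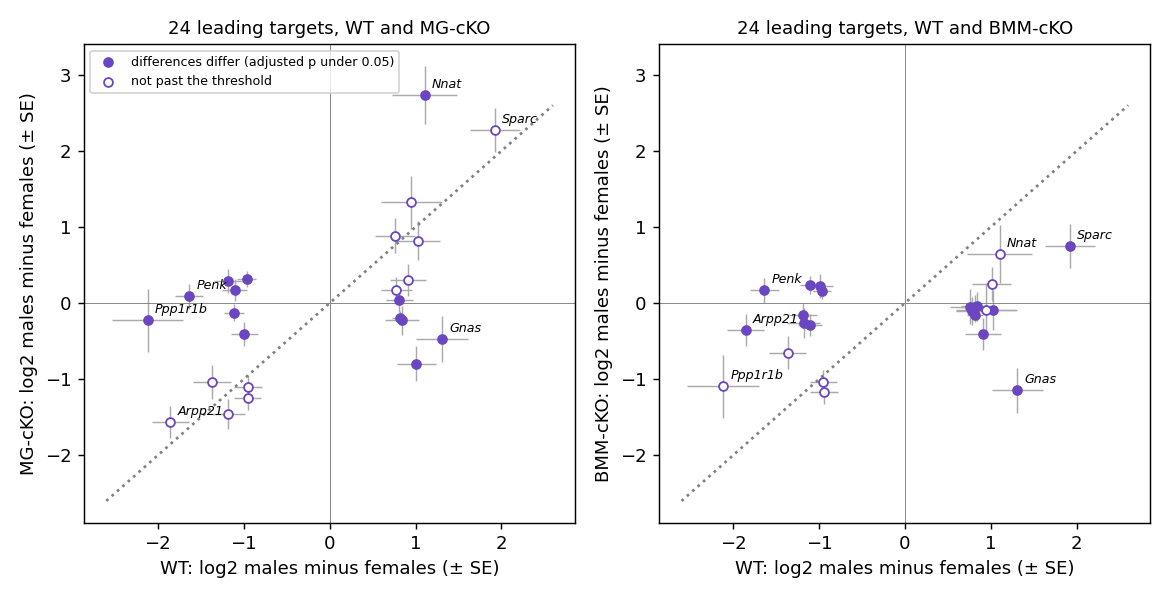
Log2 difference between male and female regions (± SE) of the 24 leading targets in WT, on the horizontal axis, against the same difference in MG-cKO (left) and BMM-cKO (right). Filled points differ between the genotypes with an adjusted p under 0.05, and the dotted line marks equal differences. Penk and Ppp1r1b lie far from the line in MG-cKO and Sparc close to it, and in BMM-cKO most of the rises lie near 0.

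Over all tested targets, 19.7% were called in either direction in MG-cKO and 16.9% in BMM-cKO. All knockout male regions were on plate B and all knockout female regions on plate C, so that plate and scan cannot be told apart there. Of the 12 leading falls, MG-cKO males shared 5 as called lower and BMM-cKO males 3. Pdyn was called the other way in MG-cKO, at 0.32 ± 0.11. Arpp21 fell by 1.56 ± 0.21 in MG-cKO and was not told apart from WT there. Fbxl16 and Cplx2 were lower in males in all 3 genotypes, at -1.24 ± 0.16 and -1.11 ± 0.16 in MG-cKO and -1.04 ± 0.16 and -1.16 ± 0.16 in BMM-cKO. Of the 12 leading rises, MG-cKO males shared 5 as called higher and BMM-cKO males none. Sparc rose by 2.28 ± 0.29 in MG-cKO, and Nnat by 2.74 ± 0.38, which was -1.63 ± 0.54 away from WT (adjusted p = 0.0251). Kif5a was called the other way in MG-cKO, at -0.79 ± 0.23, and Gnas in BMM-cKO, at -1.15 ± 0.30, against 1.31 ± 0.30 in WT. The hypothalamic list was higher in MG-cKO males too, with 10 called higher, none lower and a median of 0.43, and with 2 called higher and a median of 0.06 in BMM-cKO. The macrophage list had 14 higher and none lower in MG-cKO males and 4 higher and none lower in BMM-cKO males.

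Plate could be separated from scan in WT only through female region 1. With that region alone against the 4 male regions, all on plate B, all 24 leading targets kept their direction. This direction was largely set by the choice of targets without overlap between the groups, which places female region 1 beyond all male regions. Their size was smaller for the striatal genes, at -1.01 for Penk (adjusted p = 0.0006), -1.09 for Ppp1r1b (adjusted p = 0.000621) and -0.92 for Arpp21 (adjusted p = 0.00052), and 8 striatal genes were called lower. For Sparc the value was 1.08 (adjusted p = 0.0566) and for Gnas 0.52 (adjusted p = 0.477), neither of them called, and 3 hypothalamic genes were called higher. With plate as a term in the fit, 6 of the 24 were called, 5 striatal genes were called lower and no hypothalamic gene was called. These values rest on a single female region, which is assumed to vary like the others.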

How the data were processed

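GeoMx probe tags were measured in 24 brain regions, of which the 8 WT regions are described. The deposited values are signal per target and region. Within a region they were whole multiples of a single step, for at least 99.985% of targets within 0.01 of a whole number, and their geometric mean was equal within each animal group, so the authors' signal carries 1 factor per region set within the group. Counting software and genome build are not given in the sources used here. A further 12 columns named only by genotype were not used. The median target had 87 to 268 tags in the WT regions, a counting error of 6.11% to 10.7%, which covers counting only.

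The filter kept the 9981 of 19962 targets with the higher mean relative level. Values were tested as log2(value + 1), centred on each region's median over these targets, with limma 3.58.1 (lmFit, eBayes with trend) in R 4.3.3. All 24 regions entered, with 1 coefficient per group and Benjamini-Hochberg adjustment over all tested targets. Named genes were the 12 largest rises and 12 largest falls among called targets without overlap between the groups, the first 2 members of each list, up to 4 called members per list and direction, the sex-linked lists and Lyn. A few genes that this rule names are not reported here. Members, lists and rule were chosen with earlier results of these data known. On simulated data for WT males against WT females, 200 targets were changed, shared among sizes of 0.3, 0.6, 1 and 2 log2. Of the changes at each size 44%, 100%, 100% and 98% were recovered, in that order, with 17 false calls in all. The simulated regions were independent, without a shared animal, slide or plate. Alternatives changed the filter, scale, pseudocount, plate term, spread and regions used.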

Additional observations from a re-analysis of the deposited data

Results flagged for a closer look

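Of 226 sets of 4 WT regions, each 1 named gene or region measure in 1 group, 12 held a region whose gap to the nearest of the others passed Dixon's 95% limit, where chance alone flags about 1 in 20. Among them was Hba-a1, an alpha globin, at 2.58 times the negative probe in male region 1, a level no other WT region approached. In female region 2 Hba-a1 was at 0.714 times, below background. The other regions that stood apart, in multiples of the negative probe, were Pmch at 0.571 in female region 3, Tcf7l2 at 0.798 in female region 4, Nptx1 at 1.12 in female region 1, Map2 at 1.92 in female region 4, Pcp4 at 1.79 in male region 3, Dlx5 at 1.75 in female region 2, S100a4 at 1.5 in male region 4, S100b at 1.9 in female region 1, S100a8 at 0.688 in female region 2 and Il6 at 0.942 in male region 1.

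The difference between male and female regions differed between genotypes for 13 of the 24 leading targets with MG-cKO and 17 with BMM-cKO (limma, adjusted p under 0.05), beside 27.1% and 45.7% of all targets. The values are log2 differences in WT minus those in the knockout. Relative to MG-cKO, the WT difference was lower for Ppp1r1b (-1.89), Penk (-1.73), Nnat (-1.63), Gng7 (-1.47), Pdyn (-1.28), Adcy5 (-1.28), Crym (-0.98) and Hikeshi (-0.59), and higher for Kif5a (1.80), Gnas (1.78), Camk2n2 (1.07), Plekhm2 (1.01) and Podxl2 (0.77). Relative to BMM-cKO, it was lower for Penk (-1.80), Arpp21 (-1.50), Crym (-1.35), Hikeshi (-1.21), Pdyn (-1.12), Gng7 (-1.02), Hpca (-0.92) and Adcy5 (-0.82), and higher for Gnas (2.46), Gprasp1 (1.32), Sparc (1.17), Tmem130 (1.12), Plekhm2 (0.97), Camk2n2 (0.89), Oxt (0.88), Podxl2 (0.87) and Resp18 (0.80). Since the targets were chosen for their size in WT, a smaller difference elsewhere is partly set by the choice.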

How the results depend on the processing

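Another filter or scale changed the number of targets called more than the direction of the leading ones. All leading targets kept their direction under every alternative that tested them. They were chosen as the largest differences without overlap in these same regions, so that a kept direction is largely set by the choice. Targets called higher and lower in male regions numbered 3007 and 3968 without a filter, 462 and 523 with the stricter one (interactions 990 with MG-cKO and 1198 with BMM-cKO), 6779 and 256 on the deposited scale (8970 with BMM-cKO) and 493 and 531 with the negative probe subtracted (792 and 1235). They numbered 447 and 3937 centred on the non-brain probes, 420 and 802 with plate as a term, and 661 and 1057 on plate B. With 1 WT region left out they ranged from 1241 to 1617 and from 1955 to 2211, and the interactions from 2164 to 2764 (MG-cKO) and 4068 to 4539 (BMM-cKO). Above 3 times the negative probe the difference in the share of targets turned from -0.88 to 0.016 percentage points, and with a region left out it ranged from -1.32 to -0.56.

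Some genes and list medians changed sign, mostly those near 0, and the cause was not tested. On the deposited scale, which lifts all targets together, these were Agrp at 0.018, Slc17a7 at 0.25, Gad1 at 0.20, Gad2 at 0.15, Aqp4 at 0.26, Cspg4 at 0.20, Rgs5 at 0.25, S100a9 at 0.27, Rplp1 at 0.25, Uty at 0.0054, Zfy2 at 0.070, Sry at 0.11, Usp9y at 0.13, Lyn at 0.24, the neutrophil list at 0.20, the cortical list at 0.21, the mural list at 0.20, the synapse list at 0.28, the Y-linked list at 0.089 and the X-linked list at 0.27. Centred on the non-brain probes, they were Nrgn at -0.11, Snap25 at -0.15, Rbfox3 at -0.054, Pdgfra at -0.032, Cldn5 at -0.12, Flt1 at -0.055, Atp5a1 at -0.0024, the choroid plexus list at -0.0012 and the oxidative phosphorylation list at -0.0091. With the negative probe subtracted, they were Gad1 at 0.028, Rplp1 at 0.089 and the synapse list at 0.040. Without a filter they were Nrgn at -0.043, Snap25 at -0.078 and Cldn5 at -0.053, and with the stricter filter Rgs5 at 0.0029. On plate B alone, and equally with plate as a term, they were Wfs1 at 0.14, Snap25 at -0.54, S100b at -0.063, Cldn5 at -0.053, Flt1 at -0.030, Rplp1 at 0.10, Atp5a1 at -0.14, Atp5b at -0.24, Gapdh at -0.12, Aldoa at -0.092, the pan-neuronal list at -0.13, the myelin list at -0.065, the synapse list at 0.051 and the oxidative phosphorylation list at -0.064. Snap25 was also at -0.0066, -0.012, -0.029 and -0.037 after division by the 75th percentile or the negative probe, quantile normalization or plate as a random block. With 1 region left out, Nrgn from -0.10 to 0.20, Snap25 from -0.18 to 0.19, Gad1 from -0.26 to 0.038 and Cldn5 from -0.016 to 0.058 ranged across 0.

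No paired analysis was possible because the region numbers of the 2 groups do not match. The planned tests on whole tags were not run, since the deposited signal is scaled and was not treated as counts. Most targets lie near the negative probe, so that small differences cannot be told from background.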
